A study of Mus musculus with 6 samples.

Results

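The urea cycle and ammonia handling genes were followed in mouse liver by ATAC-seq, which reads open chromatin from where a transposase can cut the DNA. The 9 genes were Nags, Cps1, Otc, Ass1, Asl, Arg1, the mitochondrial carriers Slc25a15 and Slc25a13, and Glud1, and their members were all peaks of the table of single libraries whose nearest gene start, as the deposited annotation gives it, was that of a listed gene. This gave 61 of 74076 peaks and 9 of 19059 genes with a peak. Cps1 had 23 of these peaks, Arg1 had 9, Ass1 and Slc25a13 had 7 each, Slc25a15 had 5, Nags had 4, and Asl, Glud1 and Otc had 2 each.

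The study set 3 refed livers (replicates 5, 7 and 8) against 3 fasted livers (replicates 1, 3 and 4). All came from male C57BL/6J mice aged 8 weeks and were taken at 10 am. Refed mice were fasted for 12 h from 10 am, and at 10 pm they were given a high sucrose diet (69% sucrose, 10% fat) for 12 h. Fasted mice had no food for the 12 h from 10 pm. The comparison therefore sets feeding on a sugar-rich diet against an overnight fast, and there was no group fed ordinary chow. About 50000 nuclei from 50 to 100 mg of whole liver went into each reaction. No label states whether the 3 libraries of a group stand for 3 animals, and p-values here reflect only the variation among libraries. In whole tissue, fewer cells of a type and a less open site per cell cannot be told apart.

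The urea cycle turns ammonia, which is toxic, into urea, and it runs mainly in hepatocytes around the portal vein. Its first steps lie in the mitochondrion, where carbamoyl phosphate is made and joined to ornithine to give citrulline. Citrulline leaves for the cytosol, takes up nitrogen from aspartate, and is broken down by way of argininosuccinate and arginine to urea and ornithine, which returns to the mitochondrion. Expression of the cycle's enzymes is known to rise with fasting and with protein in the diet, through glucagon and glucocorticoids, and to fall with carbohydrate feeding and insulin.

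The libraries held between 3238712 and 4679316 reads in peaks in refed livers and between 3205634 and 4850613 in fasted livers, with a median of 19 to 33 reads per peak. Levels are RPKM, in which each peak's reads are divided by its kilobases and by the library's reads in peaks. Sums over peaks are given in RPM, the same scaling without the length. The peaks closest to the starts of the hepatocyte markers Apoa1, Ttr, Alb and Hnf4a averaged 43.1, 41.7, 31.5 and 23.8 RPKM in refed livers and 43.4, 39.3, 30.1 and 24.2 RPKM in fasted livers. Of the 8 hepatocyte markers 7 had a peak and Tf had none, limma called 1 of their 77 peaks higher and 5 lower (7.79%, against 1.23% of all peaks), and their summed signal was 849 to 921 RPM in refed livers and 877 to 933 RPM in fasted livers. The 5 periportal markers, of the zone where the cycle mainly runs, had a summed signal of 285 to 309 RPM in refed livers and 437 to 484 RPM in fasted livers, with 3 of 29 peaks called lower and 0 higher (10.3%). The median change of these 29 peaks was -0.05 on the log2 scale, refed minus fasted, with 17 below zero. Of the 5 genes 3 had no called peak. At the start peaks the change was 0.05 for Hal, 0.05 for Cyp2f2, 0.20 for Hsd17b13, -0.43 for Pck1 and -0.16 for Sds, with none called. The markers include Sds and Pck1, which are known to respond to fasting themselves. The 8 pericentral markers summed to 640 to 653 RPM in refed livers and 657 to 666 RPM in fasted livers. Of their 46 peaks 2 were called lower (4.35%). The 8 endothelial ones summed to 344 to 365 RPM in refed livers and 328 to 348 RPM in fasted livers. Of these 50 peaks 2 were called higher (4%). The stellate ones, all but Des with a peak, summed to 177 to 187 RPM in refed livers and 173 to 199 RPM in fasted livers (0 of 20 called). Of 9 macrophage marker symbols 3 had a peak, Clec4f, Cd68, Timd4, Cd5l and Vsig4 had none, and their sum was 22.2 to 24.4 RPM in refed livers and 20.1 to 28.0 RPM in fasted livers. The summed signal of the cholangiocyte markers, of which 3 of 5 had a peak and Krt19 and Krt7 had none, was 81.1 to 93.2 RPM in refed livers and 66.0 to 82.0 RPM in fasted livers, and the part of these cell types in the values below was not tested.

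The promoters of the members differ in base composition, and 4 are printed here, chosen after their values were seen, because their start peaks rise in level in the order of their CpG counts. They are the 250 bases before the gene start from RefSeq on GRCm38.p6, plus strand for each, with every CpG dinucleotide in capitals. The peaks were placed on mm9, so these sequences are tied to them only by the gene start. They lie at chrX:10252055-10252304 for Otc, chr11:102145263-102145512 for Nags, chr2:31470020-31470269 for Ass1 and chr14:34310477-34310726 for Glud1.
Otc: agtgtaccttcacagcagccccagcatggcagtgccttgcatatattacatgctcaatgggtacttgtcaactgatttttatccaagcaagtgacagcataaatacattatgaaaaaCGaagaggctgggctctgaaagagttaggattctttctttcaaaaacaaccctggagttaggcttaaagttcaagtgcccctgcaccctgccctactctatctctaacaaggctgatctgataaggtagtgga
Nags: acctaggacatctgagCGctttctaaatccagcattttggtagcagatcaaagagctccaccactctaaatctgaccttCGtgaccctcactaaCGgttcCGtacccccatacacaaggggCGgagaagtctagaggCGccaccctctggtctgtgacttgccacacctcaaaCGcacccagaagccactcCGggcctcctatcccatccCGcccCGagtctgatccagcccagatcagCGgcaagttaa
Ass1: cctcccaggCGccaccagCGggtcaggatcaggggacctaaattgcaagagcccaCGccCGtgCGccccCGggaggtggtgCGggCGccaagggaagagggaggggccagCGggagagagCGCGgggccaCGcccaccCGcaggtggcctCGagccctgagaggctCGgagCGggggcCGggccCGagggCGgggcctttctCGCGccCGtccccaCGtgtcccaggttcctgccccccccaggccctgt
Glud1: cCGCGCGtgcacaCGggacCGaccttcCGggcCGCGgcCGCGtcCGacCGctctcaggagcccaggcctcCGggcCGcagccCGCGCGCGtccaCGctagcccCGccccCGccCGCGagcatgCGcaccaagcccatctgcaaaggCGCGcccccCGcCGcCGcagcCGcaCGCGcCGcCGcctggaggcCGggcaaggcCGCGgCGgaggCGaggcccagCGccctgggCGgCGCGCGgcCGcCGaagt

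Otc, with 1 CpG in this stretch, had the lowest start peak of all members, at 16.6 RPKM over the 6 libraries. Nags, with 11 CpGs, stood at 35.7 RPKM, Ass1, with 23, at 58.9 RPKM, and Glud1, with 46, at 82.0 RPKM. Slc25a13 departs from this order, with 11 CpGs and 58.7 RPKM. Slc25a15 has 2 entries in the RefSeq table, with 43 and 11 CpGs, and a start peak of 85.5 RPKM. The start peaks of Glud1 and Slc25a15 are annotated to the promoters of other transcripts, Shld2 and 1810012K16Rik. The table had 7 promoters for 6 of the 9 genes; Cps1, Asl and Arg1 had no entry. Over the 10648 genes with a promoter entry and a peak within 2 kb of the start, the CpG count and the start peak's RPKM had a Spearman rho of 0.416, given as a description, since all these points share the same libraries and the CpG count moves with base composition. The median was 19.6 RPKM for the 1431 genes with fewer than 5 CpGs and 45.1 RPKM for the 5562 genes with 15 or more.

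Short motifs were searched on both strands of the 7 promoters. TGACG, the core of the cAMP response element, was found in Slc25a13 and in 17.8% of all 32851 promoters. ATTGC, found in C/EBP sites, was in Ass1 and Slc25a15 and in 23.1% of all promoters, and CCAAT was in Slc25a13 and in 33.8%. None of the 7 held the forkhead motif TGTTTAC (3.17% of all promoters), the HNF4 motif CAAAGTC (3.84%), the glucocorticoid receptor core TGTTCT (16.1%) or the TATA box TATAAA (12.4%). A match here is a run of letters and not a bound site, and enhancers outside these 250 bases were not read.

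All 9 gene starts were open in both conditions. Slc25a15 (85.5 ± 6.84 RPKM, SD, n = 6) and Glud1 (82.0 ± 8.48 RPKM) were highest, at the 97.9 and 97.1 percentiles of the start peaks of 13633 genes, whose median was 36.2 RPKM. Ass1 (58.9 ± 4.69 RPKM), Slc25a13 (58.7 ± 4.96 RPKM) and Asl (46.8 ± 2.58 RPKM) also stood above that median, at percentiles 83.8, 83.5 and 68.0. Nags (35.7 ± 3.94 RPKM), Arg1 (34.4 ± 4.25 RPKM), Cps1 (26.8 ± 2.01 RPKM) and Otc (16.6 ± 3.88 RPKM) stood below it, at percentiles 49.2, 46.8, 33.8 and 17.8. The ranges over the 6 libraries overlapped between the neighbours Slc25a15 and Glud1, Ass1 and Slc25a13, Nags and Arg1, and Arg1 and Cps1, and were apart between the other neighbours. Otc lies on the X chromosome, of which male mice carry a single copy. Because the Slc25a15 and Glud1 start peaks are annotated to promoters of other transcripts, their levels may not belong to these genes alone.

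**Figure D1:**
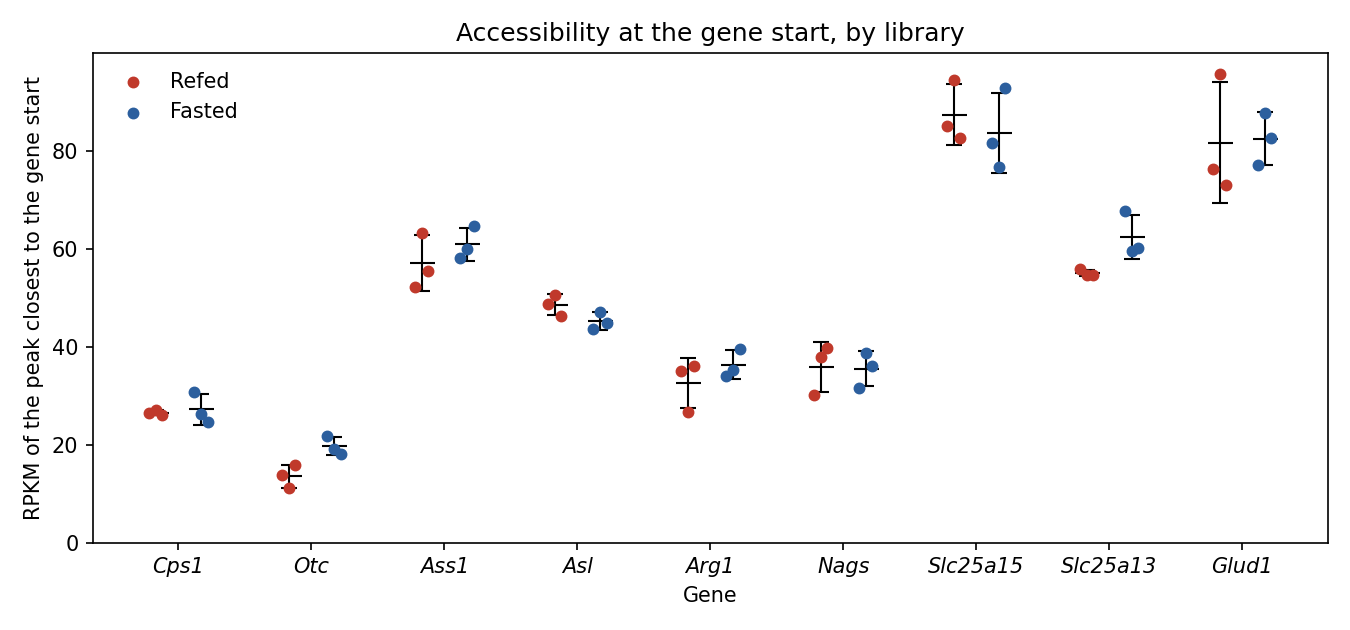
RPKM of the peak closest to each gene start, in every library, with refed libraries to the left of fasted ones. Each coloured point is 1 library, and the black mark with its bar is the mean ± SD of 3. The groups are apart at Otc and Slc25a13 and overlap at the other 7 genes. Over all 74076 peaks the groups were apart at 19%.

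No member passed the limma test, and edgeR called a single peak, far downstream of Cps1. With limma across all 74076 peaks and Benjamini-Hochberg adjustment, 0 of the 61 member peaks passed an adjusted p of 0.05, against 910 of all peaks, or 1.23% (0.802% higher and 0.427% lower in refed livers). At an unadjusted limma p under 0.05 there were 7 member peaks, 11.5% of them, against 14.5% of all peaks. Of the 7, 5 were lower in refed livers (5.64% of all peaks were) and 2 were higher (8.91% of all peaks were). The 3 refed libraries lay wholly above or wholly below the 3 fasted ones at 5 of 61 member peaks, 8.20%, against 19% of all peaks. Over both directions these shares were below those of all peaks. On whole reads recovered from the RPKM values, edgeR called 1 of 55 member peaks it could test higher and 0 lower (4.01% of all peaks tested, 2.58% higher and 1.43% lower) and DESeq2 called 0 (1.66% of all peaks with an adjusted p). The member called by edgeR was the Cps1 peak far downstream of the gene, described below, which is also the member listed in the authors' deposited table (4.47% of all peaks were listed there).

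The member peaks' changes ran between -1.0 and 0.98 on the log2 RPKM scale, refed minus fasted, with a median of -0.08 and a median standard error of 0.21. Of the 61, 36 lay below zero, or 59.0%, against 45.6% of all peaks, whose median was 0.002. That median is the change of a peak with no read in any library. Such empty peaks count as above zero and so lower the share of all peaks below zero. Among peaks averaging at least 10 reads per library, the median was -0.004 for all peaks and -0.08 for the members. The 95% interval lay within a 2-fold change in both directions at 40 member peaks and reached it at the other 21. The members had a median of 40.3 reads per library; 5 averaged under 10 reads and 3 had a library with no read. A Cps1 peak 633210 bp past the start, inside an IAPEz-int retroviral repeat, had no read in any of the 6 libraries and carries only the value set for empty peaks.

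**Figure D2:**
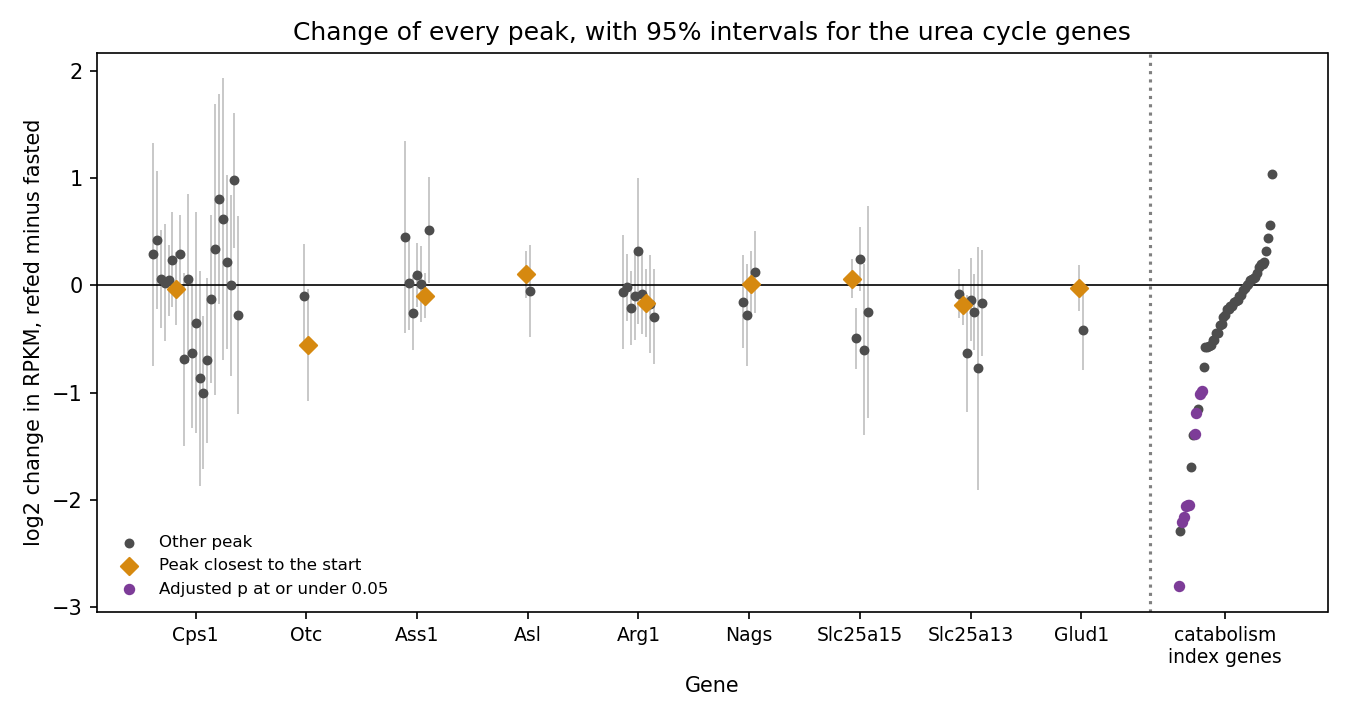
Log2 change in RPKM, refed minus fasted, of the 61 member peaks by gene; each marker is a peak, with limma's 95% interval as a line, and diamonds mark the peak closest to the start. To the right of the dotted line are the 53 peaks of 8 genes of amino acid breakdown (catabolism index genes), by size of change, with the 10 at a limma adjusted p at or under 0.05 in purple. The 7 Slc25a13 peaks all lie below zero, while the 23 Cps1 peaks lie on both sides.

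Nags makes N-acetylglutamate, the cofactor without which Cps1 is inactive. Its start peak at chr11:102006532-102007183 had 30.1, 37.9 and 39.7 RPKM in refed livers, against 31.6, 38.8 and 36.0 RPKM in fasted livers. The groups overlapped, and the change of 0.01 ± 0.14 (SE; 95% interval -0.30 to 0.32) had a limma adjusted p of 0.999. The Nags peak with the smallest p, 2349 bp before the start, had an estimate of -0.27 ± 0.22 (limma adjusted p = 0.639), which was 0.01 without refed replicate 5 and -0.43 without refed replicate 8.

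Cps1, the enzyme that commits ammonia to the cycle, had a promoter that was even across the libraries. Its start peak at chr1:67169315-67169839 had 26.5, 27.1 and 26.1 RPKM in refed livers, against 30.6, 26.1 and 24.7 RPKM in fasted livers, a change of -0.03 ± 0.16 (95% interval -0.36 to 0.31, limma adjusted p = 0.999). Its strongest peak lay 6291 bp before the start at chr1:67162962-67163659, with 36.4, 34.1 and 30.9 RPKM in refed livers and 40.2, 30.4 and 28.4 RPKM in fasted livers. The groups overlapped there as well (0.05 ± 0.15, limma adjusted p = 0.979). The 6 upstream peaks, out to 30338 bp before the start, all had estimates above zero, of 0.02 to 0.43, and none had an unadjusted p under 0.05.

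Inside the Cps1 gene the libraries split differently. Beyond 20 kb from the start there were 7 peaks in the gene, the last of them 108657 bp from the start at the transcription end, and 6 had estimates below zero, with a median of -0.69. Their summed signal was 17.2, 39.5 and 41.2 RPM in refed livers, against 65.8, 37.4 and 41.1 in fasted livers. Refed replicate 5 was the lowest library at 7 of the 7 peaks and fasted replicate 1 was the highest at 6. The sums of the other 4 libraries lay close together, though these libraries varied at single peaks. Up to 3 kb past the start the sums of the 8 peaks were 114, 106 and 104 in refed livers. In fasted livers they were 128, 81.4 and 93.9. There refed replicate 5 was the lowest library at 0 of 8 peaks and fasted replicate 3 at 6. Fasted replicate 1 was the highest at 4 of these 8, so its high rank was not confined to the peaks beyond 20 kb. This stretch of 7 peaks was picked after its values were seen, so no test is given for it. Over all 8 peaks in the gene, summed as an alternative added after seeing the data, the change was -0.40 ± 0.22 (limma adjusted p = 0.447; 1.75% of such sums were called over all genes).

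The lowest estimate among all members was also in this stretch, in intron 25 of 37 at chr1:67248934-67249133, a peak named after its value was seen. It had 7.18, 7.72 and 15 RPKM in refed livers, against 22.7, 17.2 and 17.1 RPKM in fasted livers, from 6, 5 and 14 reads and from 22, 11 and 14 reads. The groups were apart, and the change of -1.0 ± 0.33 did not pass (limma adjusted p = 0.167).

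**Figure D3:**
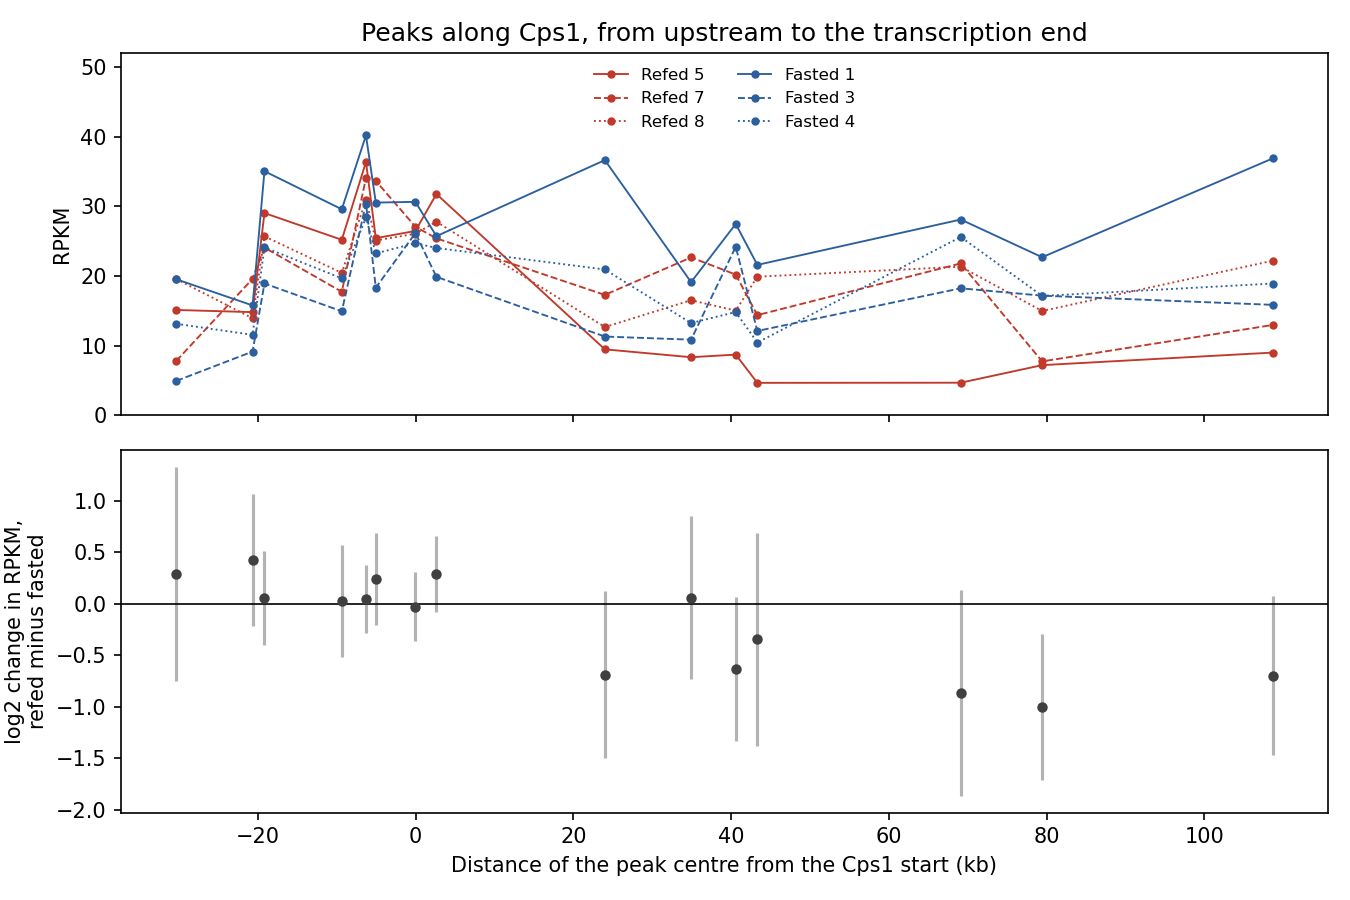
Peaks along Cps1 from 30 kb before the start to the transcription end. The upper panel gives RPKM per library, refed in red and fasted in blue, by distance of the peak centre from the start in kb; the lower panel gives the log2 change, refed minus fasted, with limma's 95% interval. At the 7 peaks in the gene beyond 20 kb refed replicate 5 is the lowest library, and at 6 of them fasted replicate 1 is the highest.

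The member called by edgeR lay 833183 bp past the Cps1 start, in intergenic sequence at chr1:68002509-68003059. Cps1 is the nearest start to it, which does not tie the site to the gene. It had 30.0, 19.6 and 23.3 RPKM in refed livers, against 18.7, 10.2 and 9.32 RPKM in fasted livers. Every refed library was above every fasted one, with fasted replicate 1 just under refed replicate 7. The change was 0.98 ± 0.29 on the log2 scale (95% interval 0.35 to 1.61), with a limma adjusted p of 0.126 and an edgeR adjusted p of 0.0484. The authors' deposited table gives it a log2 fold change of 0.90 and an FDR of 0.0329. Without fasted replicate 1 the change was 1.30 with a limma adjusted p of 0.0331, and over all alternatives the adjusted p ran between 0.00318 and 0.325.

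Otc joins carbamoyl phosphate to ornithine. It had the weakest gene start and the lowest estimate among the 9 start peaks. The peak at chrX:9829221-9829692 had 13.7, 11.1 and 15.8 RPKM in refed livers, against 21.8, 19.2 and 18.1 RPKM in fasted livers, from 27, 17 and 35 reads and from 50, 29 and 35 reads. All 3 refed libraries were below all 3 fasted ones. The change was -0.55 ± 0.24 (95% interval -1.07 to -0.03) with an unadjusted limma p of 0.0403, which did not pass over all peaks (limma adjusted p = 0.313, edgeR adjusted p = 0.253). The other Otc peak, 12615 bp before the start, had overlapping groups and a change of -0.10 ± 0.23 (limma adjusted p = 0.939). At both peaks the estimate was below zero, though that of the upstream peak was 0.11 without refed replicate 8 and 0.04 without fasted replicate 1, and a fall past 2-fold at the promoter was within the interval.

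Slc25a15 carries ornithine into the mitochondrion and citrulline out. Its start peak at chr8:23508522-23509371, which the annotation gives to the promoter of the neighbouring transcript 1810012K16Rik, had 85.1, 94.4 and 82.5 RPKM in refed livers, against 81.5, 76.7 and 92.7 RPKM in fasted livers, and changed by 0.06 ± 0.08 (limma adjusted p = 0.818). The smallest p of all members belonged to a peak in intron 2 of 6, at chr8:23504997-23505436. This peak had 32.6, 29.5 and 32.1 RPKM in refed livers, against 46.4, 48.9 and 37.8 RPKM in fasted livers, and the groups were apart. The change of -0.49 ± 0.13 (95% interval -0.78 to -0.21) had an unadjusted limma p of 0.00245 and missed the threshold over all peaks, with a limma adjusted p of 0.0912 and a range of 0.0678 to 0.423 over the alternatives. Another peak of intron 2, 7505 bp past the start, was named after its value was seen. It averaged 36.1 RPKM over all libraries, and its estimate was opposite in sign, 0.25 ± 0.14 (limma adjusted p = 0.444).

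Slc25a13, or citrin, carries aspartate out of the mitochondrion in exchange for glutamate and so feeds the cytosolic steps. All 7 of its peaks had estimates below zero, of -0.08 to -0.77, and 0 passed the test (limma, lowest adjusted p = 0.262). Its start peak at chr6:6166374-6167502 had 55.8, 54.7 and 54.5 RPKM in refed livers, against 67.6, 59.4 and 60.0 RPKM in fasted livers. The refed libraries were close to each other and all below the fasted ones, by -0.18 ± 0.09 on the log2 scale (limma adjusted p = 0.388). The peak with the smallest p, in intron 1 at chr6:6157822-6158258, had 22.5, 14.8 and 14.7 RPKM in refed livers and 36.8, 20.0 and 24.6 RPKM in fasted livers. The groups overlapped (-0.63 ± 0.25, limma adjusted p = 0.262; 0.0503 to 0.530 over the alternatives). Without fasted replicate 1 the estimate was -0.39 for this peak and -0.12 for the start peak. A peak in intron 13 of Slc25a13 that the annotation assigns to the nearer start of 1700019G24Rik averaged 14.3 ± 4.00 RPKM in refed livers and 19.1 ± 1.73 RPKM in fasted livers (SD, n = 3 each; -0.45 ± 0.26, limma adjusted p = 0.471).

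Ass1 joins citrulline and aspartate, the step that brings in the urea molecule's other nitrogen. Its start peak at chr2:31325374-31326066 had 52.2, 63.3 and 55.5 RPKM in refed livers, against 58.0, 59.9 and 64.6 RPKM in fasted livers, with overlapping groups (-0.10 ± 0.10, limma adjusted p = 0.729). A smaller peak 940 bp past the start, in intron 1, had 21.8, 36.1 and 29.8 RPKM in refed livers, against 15.4, 25.3 and 20.6 RPKM in fasted livers. The estimate there was 0.51 ± 0.23, opposite in sign to that of the promoter beside it, with overlapping groups and a limma adjusted p of 0.319, and it was 0.32 without fasted replicate 1.

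Asl splits argininosuccinate into arginine and fumarate, and its start was the steadiest of the members relative to its level. The peak at chr5:130499760-130500540 had 48.7, 50.6 and 46.2 RPKM in refed livers, against 43.6, 47.1 and 44.8 RPKM in fasted livers. The change was 0.10 ± 0.10 (95% interval -0.11 to 0.32, limma adjusted p = 0.719). Arg1 releases urea from arginine. The start peak of Arg1 at chr10:24646876-24647592 had 35.1, 26.7 and 36.1 RPKM in refed livers, against 33.9, 35.2 and 39.6 RPKM in fasted livers (-0.16 ± 0.15, limma adjusted p = 0.694; -0.02 without refed replicate 7). The strongest Arg1 peak, 24562 bp before the start at chr10:24671366-24672311, averaged 35.3 ± 2.14 RPKM in refed livers and 36.1 ± 6.11 RPKM in fasted livers, as high as the promoter itself (-0.02 ± 0.15, limma adjusted p = 0.999). The Arg1 peak with the smallest p, in intron 1, had an estimate of -0.29 ± 0.20 (limma adjusted p = 0.570), which ran between -0.48 and -0.13 as single libraries were left out.

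Glud1 releases ammonia from glutamate in the mitochondrion. The Glud1 start peak at chr14:35123369-35124546, which the annotation gives to the promoter of Shld2, had 76.2, 95.7 and 72.9 RPKM in refed livers, against 77.0, 87.7 and 82.6 RPKM in fasted livers, a change of -0.02 ± 0.10 (limma adjusted p = 0.999). The peak 1904 bp past the start, in intron 1, had 30.7, 33.1 and 25.1 RPKM in refed livers, against 51.4, 35.6 and 33.0 RPKM in fasted livers. These groups overlapped only in that refed replicate 7 was just above fasted replicate 4. With limma the change was -0.41 ± 0.18 (adjusted p = 0.290), and it was -0.22 without fasted replicate 1.

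By position, and with no test between positions, the estimates were as follows. The 9 peaks that the annotation calls promoters had a median change of -0.03, and the 20 upstream peaks one of 0.02. These 9 are not the 9 start peaks: Arg1 gave 2, and the Slc25a13 start peak, annotated to intron 1, is counted with the body peaks. The 23 peaks in the bodies of their own genes had a median of -0.29, with 18 below zero, against a median of 0.0007 and 49.9% below zero among 24008 such peaks of all genes. Cps1 gave 8 of the 23, and the other 15, with the Slc25a13 start peak among them, had a median of -0.18, with 12 below zero. Without that start peak the body peaks had a median of -0.32, with 17 of 22 below zero. The 8 peaks past the end of Cps1 had a median of 0.28. Neither these peaks nor the remaining Slc25a15 peak, at the transcription end of Tpte, passed the limma test, and the peaks share 6 libraries and a few genes. Fasted replicate 1, the deepest library, was the highest at 13 of the 23 body peaks and at 25 of all 61 peaks. The part of that library in the position pattern was not tested.

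Summed over all peaks of a gene, the 9 genes were within a narrow band. With limma over 19059 genes, 0 of 9 passed an adjusted p of 0.05 against 2.05% of all genes (1.49% higher and 0.561% lower), 0 of 9 had an unadjusted p under 0.05 against 14% of all genes, and edgeR (2.35% of all genes) and DESeq2 also called 0. Cps1 had 169 ± 5.52 RPM in refed livers and 169 ± 42.8 in fasted livers (SD, n = 3 each), a change of 0.02 on the log2 scale. Otc had 19.5 ± 2.76 in refed livers and 23.1 ± 3.20 in fasted livers, the lowest estimate of the 9 at -0.25 ± 0.17 (limma adjusted p = 0.577). Slc25a13 had 161 ± 6.42 in refed livers and 186 ± 28.9 in fasted livers (-0.20 ± 0.10, limma adjusted p = 0.447). Without fasted replicate 1 the estimates were -0.14 for Otc and -0.08 for Slc25a13, and without refed replicate 8 that of Otc was -0.16. The other 6 genes had changes between -0.10 and 0.07. The 95% intervals of all 9 lay between 0.656-fold and 1.25-fold, so a change of 2-fold in the summed signal lay outside each of them. At all 9 genes the groups overlapped, and the share of all genes with overlapping groups is not given here. Over all members together the sums were 976 to 1059 in refed livers and 985 to 1129 in fasted livers.

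**Figure D4:**
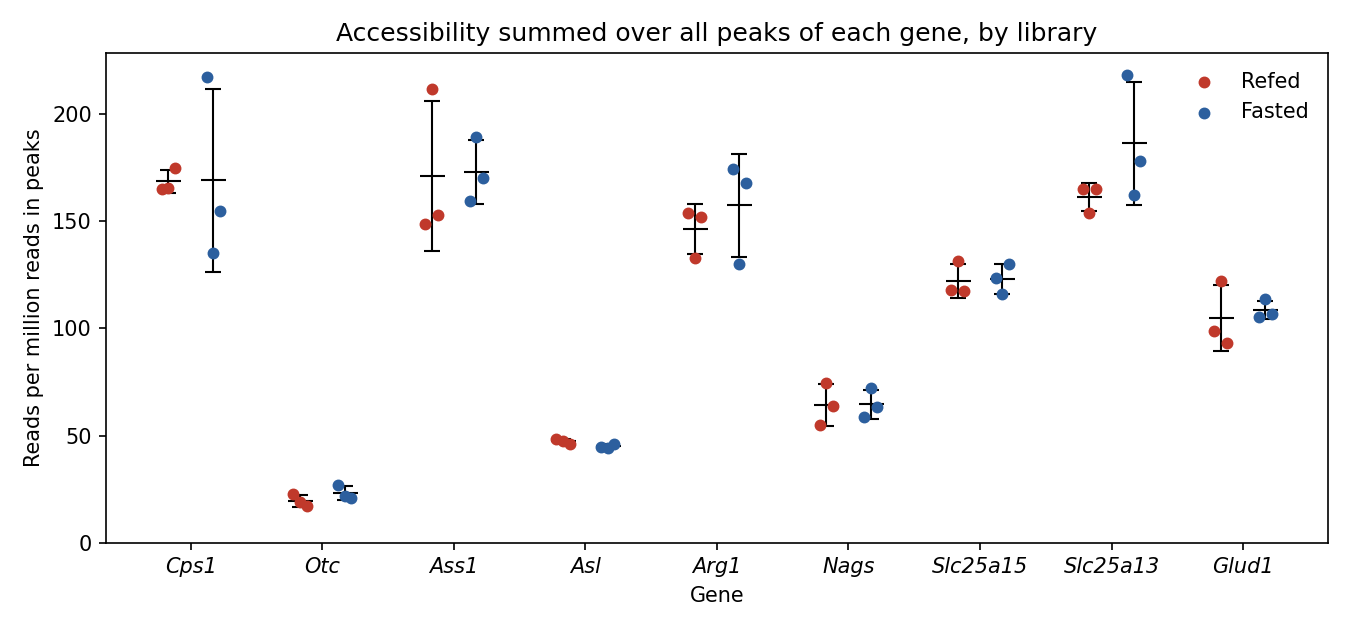
Signal summed over all peaks of each member gene, in RPM, for each library, with refed to the left of fasted; coloured points are libraries and the black mark with its bar is the mean ± SD of 3. The groups overlap at all 9 genes (the share over all genes is not given), and fasted replicate 1 is the highest library for Cps1 at 217.

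Genes that bring nitrogen to the cycle or take ammonia elsewhere gave 2 lower and 0 higher out of 30 with a peak, of 32 listed. Slc38a4, an amino acid transporter of the hepatocyte surface, fell at a peak in exon 13 of 16, with 10.4 ± 1.79 RPKM in refed livers and 24.5 ± 1.71 RPKM in fasted livers (SD, n = 3 each; -1.25 ± 0.25, limma adjusted p = 0.0285). Slc38a3, which moves glutamine, fell at its promoter, with 23.9 ± 1.63 RPKM in refed livers and 37.6 ± 3.68 RPKM in fasted livers (-0.65 ± 0.15, limma adjusted p = 0.0483). The other 28 genes had no peak called by limma. Over this list edgeR called 6 lower and 0 higher peaks, where 1.43% of all peaks it tested were lower and 2.58% higher. DESeq2 called 1 peak, against 1.66% of all peaks with an adjusted p. How many peaks edgeR and DESeq2 tested in this list and in the lists below is not given. Their counts therefore have no share to set beside these percentages. With DESeq2 the peaks of Slc38a4 and Slc38a3 did not pass (adjusted p = 0.110 and 0.177). The share of called peaks was 2 of 169, 1.18%, beside the 1.23% of all peaks, and the list's median change was -0.05. Slc7a2, a carrier of arginine, is counted among these 28, but 2 peaks annotated to its region and assigned to Pdgfrl fell, with a log2 change of -1.95 in intron 3 of 11 and of -3.32 at its transcription end (limma adjusted p = 0.0175 and 0.0194).

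Among 18 genes for regulators of amino acid breakdown and of the cycle, 4 had a lower peak in refed livers and 0 a higher one. Limma called 2.22% of their 180 peaks, against 1.23% of all peaks in either direction and 0.427% lower. The list's median change was -0.05. It was drawn up with earlier results of these data known, so it is no independent evidence of its direction. Klf15, a factor that drives amino acid breakdown in fasting, had 14.1 ± 2.55 RPKM in refed livers and 42.7 ± 6.94 RPKM in fasted livers at a peak 1198 bp before its start (SD, n = 3 each; -1.60 ± 0.19, limma adjusted p = 0.00291). Crtc2, a CREB coactivator under glucagon, changed by -0.84 at a peak in intron 4, Creb3l3, a factor of the fasting liver, by -0.76 in intron 1, and Ppargc1a, a coactivator of the fasting response, by -1.27 in intron 2 (limma adjusted p = 0.0252, 0.0434 and 0.0437). The Creb3l3 peak did not pass with edgeR (adjusted p = 0.0850) or DESeq2 (adjusted p = 0.362). The peaks of Cebpa, Cebpb, Hnf4a, Nr3c1 and the remaining regulators had no call with limma. Over the list DESeq2 made 5 calls while edgeR made 2 higher and 6 lower ones. Over all peaks DESeq2 called 1.66% of those with an adjusted p, and edgeR called 2.58% of those tested higher and 1.43% lower.

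A further list held enzymes that break down amino acids. Of 8 such genes, 4 had lower peaks in refed livers and 0 had higher ones, with a median change of -0.28. Limma called 10 of 53 peaks, 18.9%, against 1.23% of all peaks (0.427% lower). On recovered reads edgeR called 14 and DESeq2 9. Over all peaks edgeR called 4.01% of those tested, and DESeq2 called 1.66% of those with an adjusted p. Tat and Tdo2, which start the breakdown of tyrosine and tryptophan, had 4 lower peaks each, and Hpd and Sds had 1 each. The strongest, 18865 bp past the Tdo2 start and annotated to the transcription end of Ctso, had 6.22 ± 1.25 RPKM in refed livers and 43.6 ± 10.1 RPKM in fasted livers (SD, n = 3 each; -2.80 ± 0.26, limma adjusted p = 0.000617). The called Tdo2 peak 19875 bp past the start was annotated to Ctso as well, in its 3' UTR. The start peaks of Tdo2 and Tat were not called either, with -0.14 at Tdo2 and 0.06 at Tat (limma adjusted p = 0.685 and 0.954), and 8 of the 10 calls lay past the start. The list was drawn up with earlier results of these data known, so it is no independent evidence of its direction and no gauge of what could have been seen at the members. No test of the difference between this list and the members was made.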

How the data were processed

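ATAC-seq of 3 refed and 3 fasted livers was taken from the deposited tables. The submitters' processing notes name mm9 with Bowtie2, cutadapt, SAMtools, FastQC, HOMER, MACS2 and DESeq2. Tool versions, whether peaks were called per library or on pooled libraries, and any shift of reads for the transposase were not given in the sources used here. Duplicates were removed and unique reads kept, per the file headers, and all libraries were quantified over 1 set of peaks. The authors deposited RPKM, scaled to peak length and to reads in listed peaks, and its log2; an empty peak was given the value of 0.9 reads. Libraries that differ in their fraction of reads within peaks are thereby set level. The deposited ratio of refed over fasted RPKM was not used. The authors' deposited edgeR table gives read counts, a p-value and FDR, and a log2 fold change, and it lists only peaks that pass an FDR of 0.05.

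Limma 3.58.1 in R 4.3.3 (lmFit, eBayes with an intensity trend) was fitted to log2 RPKM of all 74076 peaks, refed minus fasted, with Benjamini-Hochberg adjustment over all peaks and a threshold of 0.05, with no filter and no pseudocount. Signal per gene was RPKM times peak length, summed over the peaks assigned to the gene by nearest start, and fitted over 19059 genes in the same way. Whole reads came out of the RPKM steps for 100% of values at a tolerance of 0.01 reads and equalled the authors' counts at all 3314 peaks listed by them; on these reads edgeR 4.0.16 called 2449 peaks and DESeq2 1.42.0 called 919. The code of the fits was run on simulated reads, with the same spread set for all peaks and no library effect other than depth. That run is no gauge of the calls in these data. Intervals cover the spread between libraries. For each gene the peak closest to the start, the strongest peak and the peak with the smallest p were named; others are said to be chosen after their values were seen. The result of 1 marker list is not reported here. The members and the gene lists were chosen with earlier results of these data known. Coordinates are 1-based mm9 positions from the files, and promoters are RefSeq sequences of GRCm38.p6.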

Additional observations from a re-analysis of the deposited data

How the results depend on the processing

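The median change of the member peaks was -0.17 to -0.002 over the alternatives. It was -0.002 without fasted replicate 1, where the median of all peaks was -0.02. The part of that library in the members' lower median was not tested. The counts of member genes higher and lower on summed signal stayed at 0 under every alternative. The number of member peaks higher in refed livers, and of named member peaks past the threshold, was 1 in place of 0 with array weights and with edgeR, and 0 to 1 over the fits that left out 1 library each, with the call made without fasted replicate 1. In each case it was the peak 833183 bp past the Cps1 start. The cause was not tested. No member peak was called lower under any alternative. The calls over all peaks depended more on the setting: 910 with limma as described, 0 without the intensity trend, 94 after quantile normalization, 1493 after median centring, 9686 with array weights, 2449 with edgeR, 288 without the shallowest library of each group, 105 of the 16607 peaks within 2 kb of a start, and 150 to 1175 when 1 library was left out. Summing only the peaks in a gene's own body, an alternative chosen after seeing the data, moved Cps1 to -0.40 and Ass1 to 0.51 on the log2 scale, neither past the threshold. Adding the peak of Slc25a13 assigned elsewhere, also chosen after seeing the data, changed no count. No paired analysis was possible because the refed and fasted libraries share no replicate number. With 3 libraries a group and a median of 19 to 33 reads per peak, the 95% interval reached a 2-fold change at 21 of the 61 member peaks.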
